A study of Arabidopsis thaliana with 24 samples.

Results

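The XTH genes of Arabidopsis thaliana encode xyloglucan endotransglucosylase/hydrolases, enzymes of the cell wall. They were followed here in rosettes of accession Col-0 at 6 temperatures and 2 harvests. The members are all probe sets whose single gene symbol in the probe annotation is XTH followed by a number. There were 9, each for a different gene (XTH16, XTH18, XTH19, XTH20, XTH21, XTH26, XTH29, XTH32 and XTH33), of 13350 genes named by a single-symbol probe set (13513 such among 22746 plant probe sets). A list of 33 Arabidopsis XTH loci overlapped the named probe sets at 1 further gene, EXGT-A3, whose RefSeq synonym is XTH27. It is given below as a non-member, and the remaining loci were not analysed here. The rule used no measured value. Every member had 1 probe set, so none had to be chosen over another, and no member was removed by a filter on low signal.

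Xyloglucan is a branched glucan that coats and links cellulose in the primary wall of land plants such as Arabidopsis. An XTH enzyme cuts a xyloglucan chain and either joins the new end to another chain, which re-knits the wall, or releases it to water, which trims the chain. The family is large, and its members are known for expression in different organs and for responses to hormones, touch and stress in growing leaves and roots.

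All plants were grown on soil at 20 °C in 12 h of light per day at 130 µmol of light for 4 weeks, and were moved 4 h into the light to 20 (control), 17, 14, 12, 10 or 8 °C. Rosettes were frozen after 6 h or 78 h at that temperature, both 10 h into the light. Each of these 12 groups was measured on 2 one-colour oligonucleotide arrays, marked A and B, from samples of 3 pooled rosettes. The groups carried no transgene or mutation, and plants moved to 20 °C were the control of their own harvest. The labels do not state how samples A and B arose (they mention at least 5 replicate samples as typical). The p-values therefore cover at most the spread between A and B, which may be technical, and 2 arrays per group limit the precision of every value.

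Array medians ran from 7.15 to 7.25 (log2), within a range of signals from 3.87 to 14.81. The letters separated the arrays along the first principal component (39.2% of the variance), and 60.2% of all probe sets differed between A and B arrays. Of the 9 XTH genes 6 differed between the letters (limma with Benjamini-Hochberg adjustment), which is near that share and is not read as particular to the family. The largest differences were those of XTH32, lower in B by -0.66 ± 0.05 (SE, adjusted p = 3.35e-08), and XTH16, higher in B by 0.32 ± 0.05 (adjusted p = 9.64e-05). Every group holds 1 array of each letter. Slopes and differences between temperatures are therefore the same with or without the letter as a replicate block, and the block alters their error alone. With the block the error leaves out the constant difference between A and B and covers only the spread that remains around it. Both tests are given. Of the leaf markers 7 of 15 were named, with mean signals of 11.12 to 14.43, and no flower or seed marker was named. At 78 h 5 of these 7 fell in both fits, where 1542 of all 22746 probe sets fell without the block and 15.1% with it. Without the block PSAN fell by 0.35 per 10 °C of cooling (adjusted p = 0.000644), PSAE-1 by 0.32 (adjusted p = 0.000665) and LHCB4.2 by 0.45 (adjusted p = 0.0195). The others were LHCB4.1 and PSBW. At 6 h 1 rose and 1 fell with the block, where 12.2% of all probe sets rose and 14.7% fell. The part of these changes in the XTH results was not tested. Of 9 root markers 3 were named, the beta-glucosidase PYK10 (mean 9.20) and the root hair expansins EXPA7 (5.97) and EXPA18 (5.56).

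XTH32 (mean 9.85 ± 0.41, SD over the 24 arrays) and XTH16 (8.65 ± 0.24) were clearly measured. XTH33 had a mean of 6.01. The other 6, XTH18, XTH19, XTH20, XTH21, XTH26 and XTH29, had means between 4.57 and 5.44 and were all among the dimmest 25% of plant probe sets (mean signal under 5.49). The 27 probe sets for genes of the bacterium Bacillus subtilis, which plants lack, had means between 4.24 and 6.16 (median 4.47). Whether these transcripts had been added to the samples is not given in the sources used here, and no detection call was used. Since probe sets differ in sensitivity, the signals of different XTH genes were not ranked against each other.

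The question put to each gene was whether its transcript followed temperature at a harvest. It was answered by the slope, the log2 change per 10 °C of cooling in a straight line over the 6 group means. With the letter as a block, XTH32 rose at both harvests, XTH19 rose at 6 h and XTH16 fell at 6 h. Their slopes at 6 h were 0.52 ± 0.08 (SE, 1.43-fold up), 0.39 ± 0.09 (1.31-fold up) and -0.34 ± 0.09 (1.26-fold down). The slope of XTH32 at 78 h was 0.45 ± 0.08 (1.37-fold up). Without the block no member passed the test at either harvest. The non-member EXGT-A3 fell at 6 h in both fits, as given below.

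Counted over the family, 3 of 9 members passed at 6 h with the block, 2 rising and 1 falling, where 27.0% of all probe sets passed (12.2% rising and 14.7% falling). At 78 h 1 of 9 passed, against 29.5% of all probe sets (14.4% rising and 15.1% falling). Without the block 0 of 9 passed in limma at 6 h, where 11.0% of all did, and 0 of 9 at 78 h, where 12.1% did, and the members' smallest adjusted p was 0.121 and 0.456. At an unadjusted p under 0.05 the unblocked counts were 1 of 9 (XTH19) and 0 of 9, where 22.4% and 23.6% of all probe sets lay under it. The median slope of the 9 members was 0.07 at 6 h and 0.06 at 78 h. With EXGT-A3 added, the median of the XTH genes was 0.04 and 0.05. The median over all 22746 probe sets was 0.01 and 0.02. Of these counts, those of rising genes and of all genes called at 6 h with the block stood above the share over all probe sets, and the others below it, and no count is read as particular to the family.

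**Figure D1:**
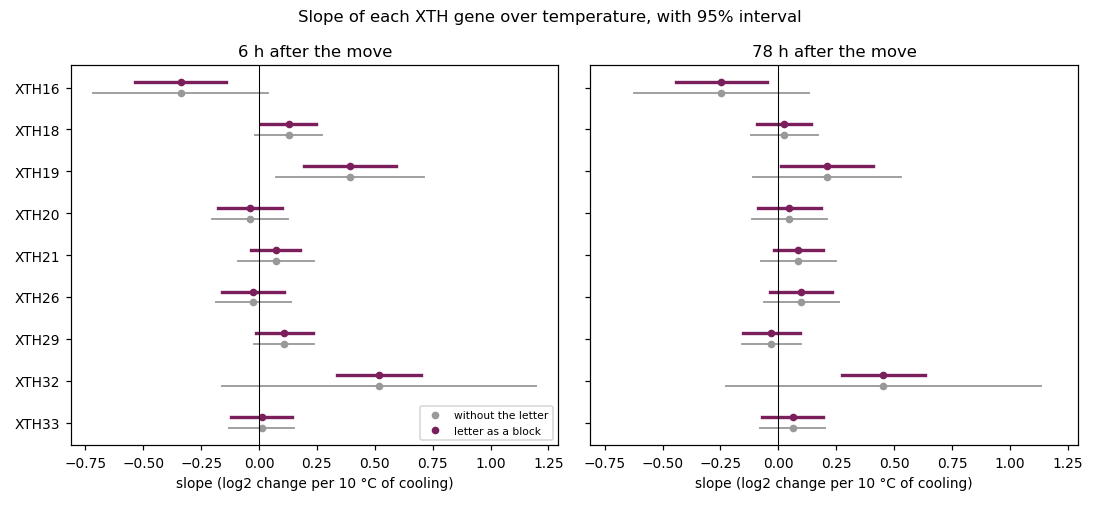
Slope of each of the 9 XTH genes (points, log2 change per 10 °C of cooling) with its 95% interval (lines), at 6 h on the left and 78 h on the right, from the fit without the letter (grey) and with the letter as a block (purple). The estimates are the same in both fits, and the interval of XTH32 at 6 h, 0.34 to 0.70 with the block, crosses 0 without it.

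XTH32 belongs to the small XTH clade that also holds XTH31, whose Arabidopsis enzymes act mainly as xyloglucan hydrolases. At 6 h its A arrays read 9.88, 10.05, 10.33, 10.29, 10.33 and 10.27 at 20, 17, 14, 12, 10 and 8 °C. Its B arrays read 8.91, 9.31, 9.51, 9.51, 9.87 and 9.69 in the same order. The control array was the lowest in each letter, and every B array lay below every A array. At 78 h the A arrays read 9.79, 9.98, 10.06, 10.28, 10.44 and 10.46. The B arrays of that harvest read 9.32, 9.56, 9.60, 9.42, 9.75 and 9.75. The control was again the lowest of each letter, and the letters did not overlap.

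Against the 20 °C array of its own letter and harvest, XTH32 was higher on 20 of 20 cooled arrays, by 0.10 to 0.95 (median 0.44). These differences share the single control array of each letter and harvest. The largest was against the B control of 6 h, which read 8.91, the lowest XTH32 value on any array. All 20 arrays were above their own control at 3.31% of all probe sets and all 20 below at 4.26%. XTH32 was the only member in either set. In these whole rosettes more RNA per cell and more cells of an expressing type cannot be told apart. With the letter as a block the slope of XTH32 had an adjusted p of 0.000316 at 6 h and 0.000803 at 78 h (limma), and it kept its call without each single array in turn (slopes 0.41 to 0.62 and 0.39 to 0.52, adjusted p at most 0.00644 and 0.0131). Without the block the adjusted p was 0.388 and 0.456. By letter the slope was 0.35 (A) and 0.68 (B) at 6 h and 0.60 (A) and 0.31 (B) at 78 h, positive in each.

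**Figure D2:**
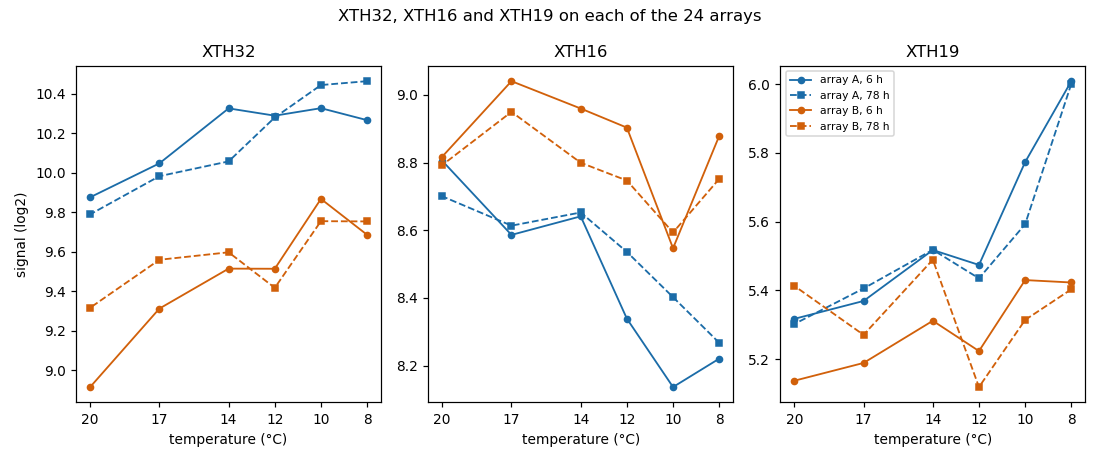
Signal (log2) of XTH32, XTH16 and XTH19 against temperature on each of the 24 arrays, falling from 20 to 8 °C along the axis; blue is array A, orange array B, circles with solid lines 6 h and squares with dashed lines 78 h, and the vertical scale differs between genes. XTH32 rises from its 20 °C value in all 4 series, XTH16 falls most in the A arrays at 6 h, and XTH19 reaches 6.01 and 6.00 at 8 °C in the A arrays only.

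By temperature, XTH32 at 6 h was 0.28 ± 0.12 above the control at 17 °C, 0.53 at 14 °C, 0.51 at 12 °C, 0.70 at 10 °C and 0.58 at 8 °C, all with the same SE. With the block, 14, 12, 10 and 8 °C passed (adjusted p = 0.0232, 0.0115, 0.000696 and 0.00317) and 17 °C did not (adjusted p = 0.417). The largest difference, at 10 °C, was 1.63-fold. At 78 h the differences were 0.22, 0.27, 0.30, 0.55 and 0.56, of which 10 °C (adjusted p = 0.00518) and 8 °C (adjusted p = 0.00329) passed. The calls at a harvest share their control arrays. Without the B control array of 6 h, which read 8.91, the calls at 14, 12 and 8 °C were lost, and without the A control array of 78 h both calls of that harvest were lost. The calls at 14 and 12 °C were also lost without the A array of that temperature, and that at 14 °C with array weights.

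The XTH32 levels at 6 h ran upwards in the order 20, 17, 12, 14, 8 and 10 °C, with group means from 9.39 to 10.10, and at 78 h in the order of cooling, from 9.55 to 10.11. No 2 neighbours in either order passed with the block. The pairs that are not neighbours in temperature, 12 against 17 °C and 8 against 14 °C at 6 h, differed by 0.22 and 0.06 (SE 0.12 each, adjusted p = 0.579 and 0.872), where 0.994% and 3.84% of all probe sets passed. No member passed in limma at a step between neighbouring temperatures at either harvest, even with the block. The steps were 17 to 14, 14 to 12, 12 to 10 and 10 to 8 °C. An unadjusted p under 0.05 was found for XTH29 from 17 to 14 °C and XTH16 from 12 to 10 °C, both at 6 h, where 6.03% and 8.65% of all probe sets had one. Such steps were rarely called anywhere, at 0%, 0.0176%, 0.251% and 0% of probe sets at 6 h and at 0%, 0%, 0.0396% and 0% at 78 h.

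XTH16 is a member of the main XTH clade, close to XTH15. At 6 h its A arrays read 8.81, 8.59, 8.64, 8.34, 8.14 and 8.22 from 20 to 8 °C. Its B arrays read 8.82, 9.04, 8.96, 8.90, 8.55 and 8.88. The A series lay below its control at every lower temperature, whereas the B series did so at 10 °C alone. At 78 h the A arrays read 8.70, 8.61, 8.65, 8.54, 8.40 and 8.27. The B arrays of 78 h read 8.79, 8.95, 8.80, 8.75, 8.59 and 8.75. The lowest B value was again the one at 10 °C.

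With the block, XTH16 fell at 6 h (adjusted p = 0.0122) and missed the threshold at 78 h with a slope of -0.25 ± 0.09 (adjusted p = 0.057). Without the block the adjusted p was 0.286 and 0.469. By letter the slope was -0.54 (A) and -0.13 (B) at 6 h, and -0.34 (A) and -0.16 (B) at 78 h. The call at 6 h was lost without the A array of 20 °C (slope -0.23, adjusted p = 0.141) or that of 8 °C (slope -0.24, adjusted p = 0.095). Of the single temperatures only 10 °C at 6 h passed, with a difference of -0.47 ± 0.13 (1.38-fold down, adjusted p = 0.0185 with the block), and it was lost without any one of the arrays of 20 °C A, 10 °C A or 10 °C B.

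XTH19 is known from roots, where auxin raises it, and lies directly beside XTH18 in the genome, with no coding gene between them in RefSeq's TAIR10.1 gene table. At 6 h its A arrays read 5.32, 5.37, 5.52, 5.47, 5.77 and 6.01 from 20 to 8 °C. Its B arrays read 5.14, 5.19, 5.31, 5.22, 5.43 and 5.42. All 10 cooled arrays of 6 h were above their own control, by 0.05 to 0.69, as they were at 11.7% of all probe sets, and these 10 differences share 2 control arrays. At 78 h the A arrays read 5.30, 5.41, 5.52, 5.44, 5.59 and 6.00. The B arrays of 78 h read 5.41, 5.27, 5.49, 5.12, 5.31 and 5.40. There the A series ended 0.70 above its control at 8 °C, and the B series ended level with it.

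With the block the slope of XTH19 passed at 6 h (adjusted p = 0.00556, at most 0.0467 without any single array), as did 8 °C at that harvest, by 0.49 ± 0.13 (1.40-fold up, adjusted p = 0.0171; lost without the array of 20 °C A, 20 °C B or 8 °C A). At 78 h the slope was 0.21 ± 0.09 (adjusted p = 0.108) and ran from 0.083 to 0.340 without single arrays. It passed without the B array of 20 °C (0.34, adjusted p = 0.0244) or of 8 °C (0.32, adjusted p = 0.0262) at 78 h. Without the block the adjusted p was 0.121 and 0.461. Within the letters the slope was 0.54 in A and 0.25 in B at 6 h, and 0.46 in A and -0.04 in B at 78 h. A test of the difference in slope between the letters, chosen after these values were seen, gave -0.50 ± 0.11 for XTH19, B minus A, at 78 h (unadjusted p = 0.00063, adjusted p = 0.124) and -0.29 ± 0.11 at 6 h (0.0232 and 0.245). For XTH16 at 6 h it gave 0.41 ± 0.13 (unadjusted p = 0.00752, adjusted p = 0.14). For XTH32 it gave 0.33 ± 0.12 at 6 h (0.0181 and 0.218) and -0.28 ± 0.12 at 78 h (0.0359 and 0.387). No member passed that test at either harvest, where 1.95% of all probe sets did at 6 h and 0.0176% at 78 h.

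The signal of XTH19 stayed within the range of the means of the B. subtilis probe sets on every array, and the gene dropped out with the filter on dim probe sets. At 6 h the mean signal of the 3 root markers was 7.08 to 7.16 at 20 °C and 7.05 to 7.11 at 8 °C, and at 78 h 6.83 to 7.19 and 6.24 to 6.54. PYK10 fell at 78 h with a slope of -1.54 (adjusted p = 0.000228 without the block) and had -0.06 at 6 h. The slopes at 6 h and 78 h were -0.01 and 0.13 for EXPA7, and 0.04 and -0.07 for EXPA18. The means of EXPA7 and EXPA18 lay within those of the B. subtilis probe sets, so their small slopes set no limit on a change of these transcripts. The part of root tissue in the XTH19 signal was not tested.

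**Figure D3:**
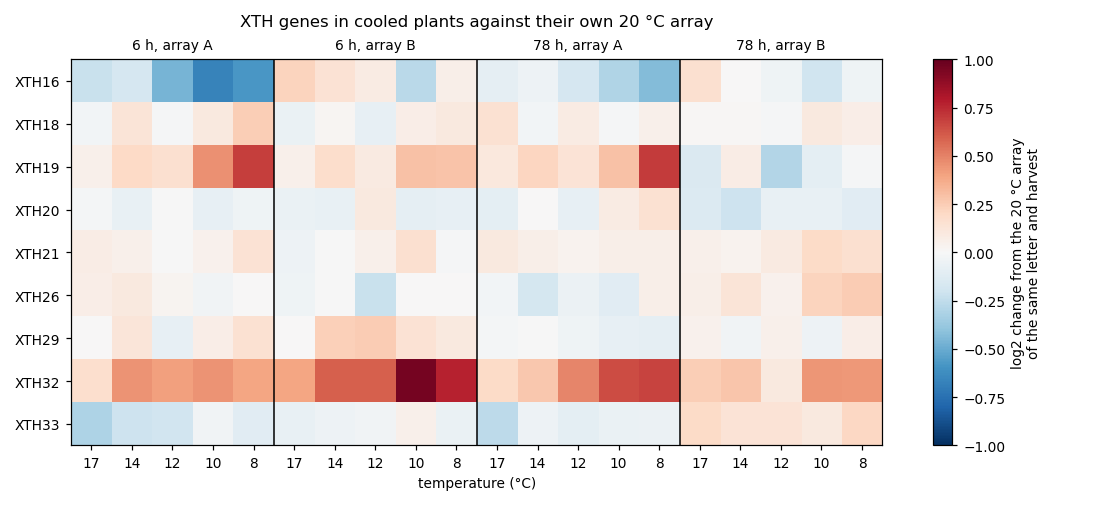
Change of each XTH gene (rows) on each of the 20 cooled arrays (columns, temperature in °C, in 4 blocks by harvest and letter) from the 20 °C array of the same letter and harvest, as a log2 difference (red higher, blue lower). The row of XTH32 is red throughout, from 0.10 to 0.95, and the other rows hold both colours.

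The other genes known from roots were XTH18 and XTH20, relatives of XTH19 in the same subgroup, XTH21, known for a part in primary root growth, and XTH26, found in root hairs. None of them passed. Over the 24 arrays XTH18 lay between 4.43 and 4.84, XTH20 between 5.29 and 5.64, XTH21 between 4.75 and 5.09 and XTH26 between 4.70 and 5.11. XTH18 and XTH19 each had their highest value on one and the same array (8 °C, 6 h, A), and the slope of XTH18 at 6 h was 0.13 ± 0.05 with the block (adjusted p = 0.102). XTH21 was above its own control on 10 of 10 cooled arrays at 78 h, by 0.03 to 0.20, as were 10.3% of all probe sets, against 2 shared control arrays, and its slope of 0.09 ± 0.05 did not pass (adjusted p = 0.22). XTH20 had slopes of -0.04 and 0.05, and XTH26 of -0.02 and 0.10. The means of these 4 probe sets lay within those of the B. subtilis probe sets, so their small slopes set no limit on a change of the transcripts.

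XTH29 is a close relative of XTH27, and XTH33 is a membrane-associated form of the enzyme. XTH29 lay between 5.08 and 5.36. It was above its own control on 9 of 10 cooled arrays at 6 h, where 20.6% of all probe sets were so on at least 9, with slopes of 0.11 ± 0.06 and -0.03 ± 0.06 (adjusted p = 0.19 and 0.746 with the block). XTH33 lay between 5.83 and 6.16 and was below its own control on 9 of 10 cooled arrays at 6 h (19.6% of all probe sets on at least 9), farthest on the A array of 17 °C, by -0.31. Its slopes were 0.01 ± 0.06 and 0.06 ± 0.06 with 95% intervals of -0.12 to 0.14 and -0.07 to 0.19 with the block. Both probe sets had means within the B. subtilis range too, and the same limit holds.

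**Figure D4:**
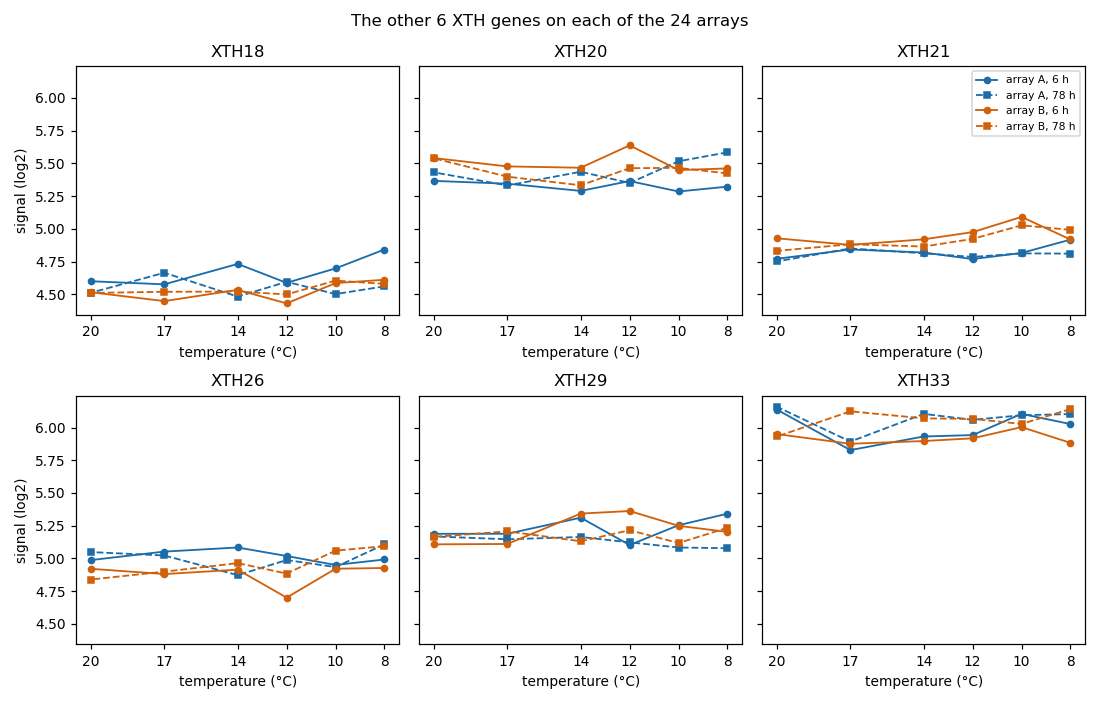
Signal (log2) of XTH18, XTH20, XTH21, XTH26, XTH29 and XTH33 against temperature on each of the 24 arrays, on one common vertical scale; blue is array A, orange array B, circles with solid lines 6 h and squares with dashed lines 78 h. Each gene stays within 0.28 to 0.41 log2 over all arrays.

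Both harvests were compared by the difference of the slopes, 78 h minus 6 h. It was -0.06 ± 0.12 for XTH32, 0.09 ± 0.13 for XTH16 and -0.18 ± 0.13 for XTH19. In limma 0 of 9 passed with the block or without it, where 14.7% and 2.56% of all probe sets did. The 95% interval for XTH32 with the block was -0.32 to 0.19. XTH19 and XTH16 passed at 6 h and not at 78 h, but their slopes were not shown to differ between harvests. In plants kept at 20 °C 0 of 9 members passed between 78 h and 6 h in either limma fit, and 0% of all probe sets were called. Of the members' differences in the control plants, the farthest from 0 was 0.16 ± 0.12 for XTH32.

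For curvature over temperature 0 of 9 members passed in either limma fit, and 1 had an unadjusted p under 0.05 (XTH32 at 6 h, with the block, as did 11.5% of all probe sets). Curvature was called at 0% of probe sets at 6 h and 0.0132% at 78 h without the block, and at 0.00440% and 1.09% with it. Over the 10 comparisons of a lower temperature with 20 °C, 8 of the members' comparisons passed with the block, 6 for XTH32 and 1 each for XTH16 and XTH19, and 0 without it (1 at an unadjusted p under 0.05, XTH19 at 8 °C and 6 h, where 17.3% of all probe sets had one). The share of all probe sets called with the block at 17, 14, 12, 10 and 8 °C was 0.163%, 4.56%, 12.1%, 19.5% and 18.9% at 6 h and 0.0132%, 1.12%, 5.77%, 16.8% and 22.3% at 78 h. Without the block it was 0%, 0.391%, 2.72%, 6.52% and 6.03% at 6 h and 0%, 0.0352%, 0.774%, 4.27% and 7.36% at 78 h. At 14 °C and 6 h 1 of 9 members passed with the block, at 12 °C 1, at 10 °C 2 and at 8 °C 2, and at 78 h 1 each at 10 and 8 °C.

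Group means moved together or apart among the members that passed. Over the 12 group means, XTH32 correlated at 0.73 with XTH19 and at -0.79 with XTH16, and XTH16 at -0.70 with XTH19. The dim XTH21 correlated at 0.79 with XTH32 and at -0.80 with XTH16. These are descriptions of genes measured on the same arrays and along the same temperature series. Among 13504 other probe sets with a single gene, the profiles most like that of XTH32 were those of NDB2, a mitochondrial NAD(P)H dehydrogenase (r = 0.96), AT1G67360 (0.96) and AT5G52450 (0.96). Those most like XTH16 were AT1G56700 (0.96), the receptor kinase THE1 (0.96), which monitors the cell wall, and AT3G20620 (0.96). For both genes these are the highest of 13504 correlations over 12 group means, and shared regulation was not tested.

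Around the XTH genes, EXGT-A3 (XTH27), an enzyme with a part in leaf vein formation, fell at 6 h in both fits, with a slope of -0.52 ± 0.11 without the block (adjusted p = 0.00863; 0.00152 with it). At 6 h it averaged 9.55 at 20 °C and 9.11 at 8 °C. At 78 h the slope was -0.11 ± 0.11 (adjusted p = 0.65). Of the 15 listed genes of xyloglucan synthesis 5 were named, all of them CSLC glucan synthases, which make the backbone of the polymer. CSLC4 fell at both harvests with the block, with slopes of -0.62 ± 0.06 and -0.52 ± 0.06 (adjusted p = 1.97e-06 and 1.03e-05), but not without it (adjusted p = 0.195 and 0.279). CSLC12 rose at 78 h with the block, by 0.16 ± 0.06 (adjusted p = 0.0477), but not without it (adjusted p = 0.248). Its mean signal of 5.57 lay within the means of the B. subtilis probe sets. CSLC5, CSLC6 and CSLC8 passed at neither harvest, with slopes of 0.10, -0.01 and -0.19 at 6 h. The median slope of the 5 was -0.01 at 6 h and -0.05 at 78 h.

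Expansins loosen the wall without cutting its chains. Of 13 named, 3 rose and 3 fell at 6 h in either fit, where 11.0% of all probe sets passed without the block and 27.0% with it. At 78 h 2 rose and 1 fell without the block (4 and 2 with it), where 12.1% and 29.5% passed, with median slopes of 0.04 and 0.13. Their largest slopes without the block were those of EXPA8 (-1.50 and -2.16), EXLA2 (1.05 at 6 h), EXLA1 (1.01 at 6 h) and EXPA9 (0.98 at 78 h). Of 13 cellulose synthesis genes COB, which guides the orientation of cellulose, was the 1 named. It had slopes of 0.48 ± 0.04 at 6 h and -0.14 ± 0.04 at 78 h, past the test with the block alone (adjusted p = 1.43e-06 and 0.0294). Of 4 touch-induced genes the calmodulin-like CML39 was named, with a mean signal of 5.82, within the means of the B. subtilis probe sets. Its slopes were 0.34 ± 0.12 at 6 h (adjusted p = 0.0476 with the block, 0.119 without) and 0.04 at 78 h. No listed gene of xyloglucan trimming or of brassinosteroid synthesis and signalling was named, and these were not analysed here.

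**Figure D5:**
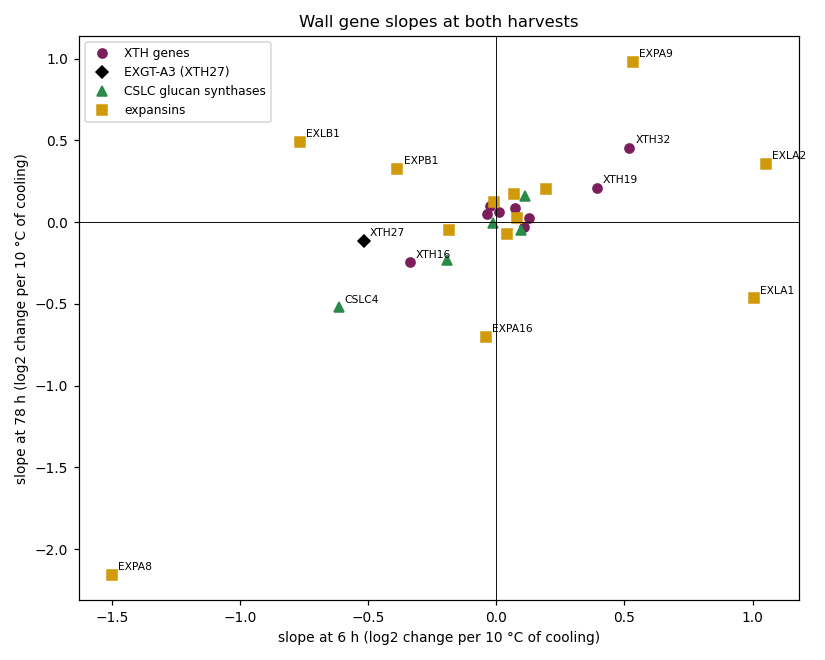
Slope at 78 h against slope at 6 h (both log2 change per 10 °C of cooling) for the 9 XTH genes (purple circles), EXGT-A3, also called XTH27 (black diamond), 5 CSLC glucan synthases (green triangles) and 13 expansins (yellow squares), with names where a slope is beyond 0.3 in size. XTH32 lies at 0.52 and 0.45 and XTH16 at -0.34 and -0.25, and EXPA8 lies farthest out at -1.50 and -2.16.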

How the data were processed

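The values deposited by the authors are log2 signals, 1 per probe set and array (the base is inferred from their range). That they were normalized between arrays before deposit is also inferred, from array medians within 7.15 to 7.25. No source used here gives the method, background correction or software. Genes come from the given probe annotation, matched to RefSeq's TAIR10.1 gene table for all 9 members. The 64 control probe sets were left out, and 22746 probe sets were tested. All 24 arrays entered limma 3.58.1 (R 4.3.3) with a separate mean for each group and moderated variances, once without the letter (12 residual degrees of freedom) and once with it as a replicate block (11). For each contrast a call needed an adjusted p under 0.05 (Benjamini-Hochberg, 22746 tests).

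The letters pair the arrays by the data: the B minus A differences of all 66 pairs of groups correlated between 0.52 and 0.89 across probe sets (median 0.67). The block is therefore given beside each result it alters. Changes against the own-letter control use no test. The pipeline was tested on simulated data. The members, the wall lists and the tests were chosen with earlier results of these data known. Every member is named, and from the other lists up to 4 genes with the largest slopes, with the remaining CSLC genes added. No member passed the test without the block, so the profiles most like a member were looked up for those with the largest rising and falling slope past the blocked test. No sequences were printed, since no table used here holds them.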

Additional observations from a re-analysis of the deposited data

How the results depend on the processing

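The counts of members past the test changed most with the replicate block. They went from 0 to 3 at 6 h, from 0 to 1 at 78 h and from 0 to 8 over the comparisons with 20 °C. Without the block they were 0 under median centring, cyclic loess, the filter on dim probe sets, trend with robust estimation, each harvest alone and array weights. Leaving out each array, with the lone array left in its group assumed to vary like the rest, gave 0 to 1 genes at 6 h (XTH19 without 8 °C, 6 h, B, with a slope of 0.55 and an adjusted p of 0.0313). With the block the 6 h count stayed within 1.5 times under every alternative. The 78 h count was 2 with the dim filter, with each harvest alone and with array weights, each adding XTH16 (adjusted p = 0.0472, 0.014 and 0.049), and 1 to 3 without single arrays. It was 3 without the B control of 78 h (XTH16 and XTH19 added), and 2 without either control or either 8 °C array of 6 h (XTH16) or the B array of 8 °C at 78 h (XTH19). The count over temperatures was 4 to 10 without single arrays, and 4 without the B control of 6 h. These combinations with the block were chosen after seeing the data. The alternative of averaging a gene's probe sets was not run, since each member has 1, and the filter leaves out 6 dim members.

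Slopes that changed sign were all uncalled. XTH33 at 6 h was -0.00893 under cyclic loess in both fits, and XTH29 at 78 h was 0.00222 under median centring in both. Leaving out single arrays gave, without the block, XTH20 at 6 h from -0.095 to 0.019, XTH26 at 6 h from -0.055 to 0.0058, XTH33 at 6 h from -0.049 to 0.073, XTH18 at 78 h from -0.00069 to 0.051, XTH29 at 78 h from -0.074 to 0.012 and XTH33 at 78 h from -0.012 to 0.136. With the block they were XTH33 at 6 h from -0.040 to 0.063, XTH18 at 78 h from -0.011 to 0.061, XTH20 at 78 h from -0.026 to 0.123, XTH29 at 78 h from -0.071 to 0.0087 and XTH33 at 78 h from -0.0043 to 0.128. The causes were not tested. The signs of XTH16, XTH19 and XTH32 stayed the same at both harvests under each of the alternatives in this section. Those fits use both letters together. Within single letters the slope of XTH19 at 78 h was 0.46 in A and -0.04 in B.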
